A study of Mus musculus with 8 samples.

Results

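The growth hormone, IGF and STAT5 axis was followed through 10 genes matched by symbol: Ghr, Stat5a, Stat5b, Igf1, Igfals, Igfbp2, Igfbp4, Socs2, Cish and Bcl6, out of 55487 genes in each count table. All 10 were found once and all 10 passed the filter on low counts. The levels came from RNA sequencing of whole liver of 4 Control mice (numbers 154, 159, 181 and 193), which were age-matched Mc1r fl/fl animals, and 4 Mc1r LKO mice (numbers 141, 156, 157 and 182), which carried Mc1r fl/fl and the Alb Cre/+ transgene, so that Cre is made under the albumin promoter in hepatocytes. All 8 were adult males kept for 12 weeks on a cholesterol-rich Western diet and killed after a short fast. The controls are not described as carrying Cre, so an effect of the transgene and an effect of losing Mc1r cannot be told apart. The question put to these genes was whether the growth hormone axis of the liver differed between the genotypes.

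Growth hormone from the pituitary binds its receptor GHR on the hepatocyte, the attached kinase JAK2 phosphorylates STAT5A and STAT5B, and these enter the nucleus and switch on Igf1, Igfals, Socs2 and Cish. SOCS2 and CISH then damp the receptor, whereas BCL6 is a repressor that can occupy the same DNA elements as STAT5. In male rodents growth hormone is released in pulses, and this pulsing maintains the male pattern of liver genes such as the Mup family and several cytochromes P450. IGF1 made in the liver circulates bound to IGF binding proteins, and IGFALS, the acid-labile subunit, holds it in a long-lived ternary complex.

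The core of a STAT5 element, TTCNNNGAA, reads the same on both strands and was looked for in RefSeq promoter windows of 300 bases, from 250 bases before to 50 after each annotated start on GRCm38.p6. RefSeq windows were matched for 9 of the 10 genes, 16 windows in all, and not for Socs2. The motif was in 5 of the 16 windows and in 8.30% of all 32851 windows, and it belonged to 3 genes, Igfals, Cish and Bcl6. The windows with the most motifs for Cish (chr9:107296409-107296708, plus strand) and for Bcl6 (chr16:23981234-23981533, minus strand) are shown because these windows held more than 1 motif. They hold 2 and 3 motifs, a number of 2 or more that was met in 0.457% of all windows. Capitals mark the motif, and a match of letters is a description and not a bound site.
Cish: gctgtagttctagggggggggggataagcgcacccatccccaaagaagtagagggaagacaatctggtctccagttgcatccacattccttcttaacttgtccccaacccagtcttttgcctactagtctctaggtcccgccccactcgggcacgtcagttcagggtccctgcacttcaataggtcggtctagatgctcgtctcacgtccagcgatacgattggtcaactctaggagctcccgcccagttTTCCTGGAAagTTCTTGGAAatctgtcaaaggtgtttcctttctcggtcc
Bcl6: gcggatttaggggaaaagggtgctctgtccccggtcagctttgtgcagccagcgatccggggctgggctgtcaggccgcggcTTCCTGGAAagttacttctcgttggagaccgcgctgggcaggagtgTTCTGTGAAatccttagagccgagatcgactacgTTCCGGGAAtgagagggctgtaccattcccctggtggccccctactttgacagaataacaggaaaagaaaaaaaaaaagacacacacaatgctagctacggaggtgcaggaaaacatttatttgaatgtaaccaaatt

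The knockout target Mc1r (ENSMUSG00000074037) had 0 counts in all 8 livers, and a count of 0 leaves room for at most 3 counts, which is 0.121 to 0.279 CPM (counts scaled to a common depth, here by the total count alone), so it could not check the labels. The total count per liver was between 10773151 and 24763375, lowest in Control mouse 159. On the first principal component of all tested genes, which held 37.6% of the variance, Mc1r LKO mouse 182 (59.3) and Control mouse 181 (27.8) lay at the positive end. Control mouse 159 (-28.2) lay farthest at the negative end. Mouse 159 also stood apart (40.5) on the second component, which held 16.9%. Hepatocyte markers were high in every liver, with 9 tested genes summing to between 80394 and 100358 CPM in Control and between 88225 and 118908 in Mc1r LKO livers. Mouse 159 was highest of all livers in 8 of 8 Kupffer cell markers (summed level 739 CPM against at most 490.0 in the other Control livers). Mouse 182 was highest in 7 of 9 hepatocyte markers and lowest in 8 of 8 endothelial and 6 of 8 Kupffer cell markers (222 CPM), and Ms4a1, a B cell marker, was at 0 in at least 1 liver. Summed levels in Control and Mc1r LKO livers were 305 to 739 and 222 to 478 CPM for Kupffer cell, 277 to 319 and 205 to 299.9 CPM for endothelial, 291 to 577 and 266 to 499 CPM for stellate, 59.7 to 149.9 and 29.8 to 257 CPM for cholangiocyte and 2.87 to 5.58 and 2.46 to 4.04 CPM for lymphocyte markers, and 0 tested markers of any list passed the unadjusted threshold. Of the markers tested, 8 of 9 hepatocyte, 4 of 4 cholangiocyte and the 1 lymphocyte marker were higher in Mc1r LKO livers. Lower there were 8 of 8 Kupffer cell, 6 of 8 endothelial and 5 of 8 stellate markers. Only 1 of 8 lymphocyte and 4 of 6 cholangiocyte markers were tested. The part of these differences in the results that follow was not tested.

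None of the 10 genes differed between the genotypes past the thresholds. At an unadjusted p under 0.05 in edgeR's quasi-likelihood test 0 of 10 passed, against 6.72% of the 13400 genes tested (901 genes), and after Benjamini-Hochberg adjustment 0 of 10 passed, against 0% of all genes. By other tools 17 genes of the whole table passed the adjusted threshold with DESeq2 and 8 with the edgeR likelihood ratio test, and no member passed it with either. The genotypes overlapped in all 10 genes, against 4.16% of all genes in which every Mc1r LKO liver lay on one side of every Control liver. The fitted level was higher in Mc1r LKO livers for 5 genes and lower for 5, with a median log2 fold change of -0.0067 beside -0.011 over all genes tested. A two-sided exact permutation test on each gene gave p between 0.200 and 0.857, where 4 livers against 4 allow no p below 0.0286. In whole liver, fewer cells of a type and less RNA per cell cannot be told apart.

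**Figure D1:**
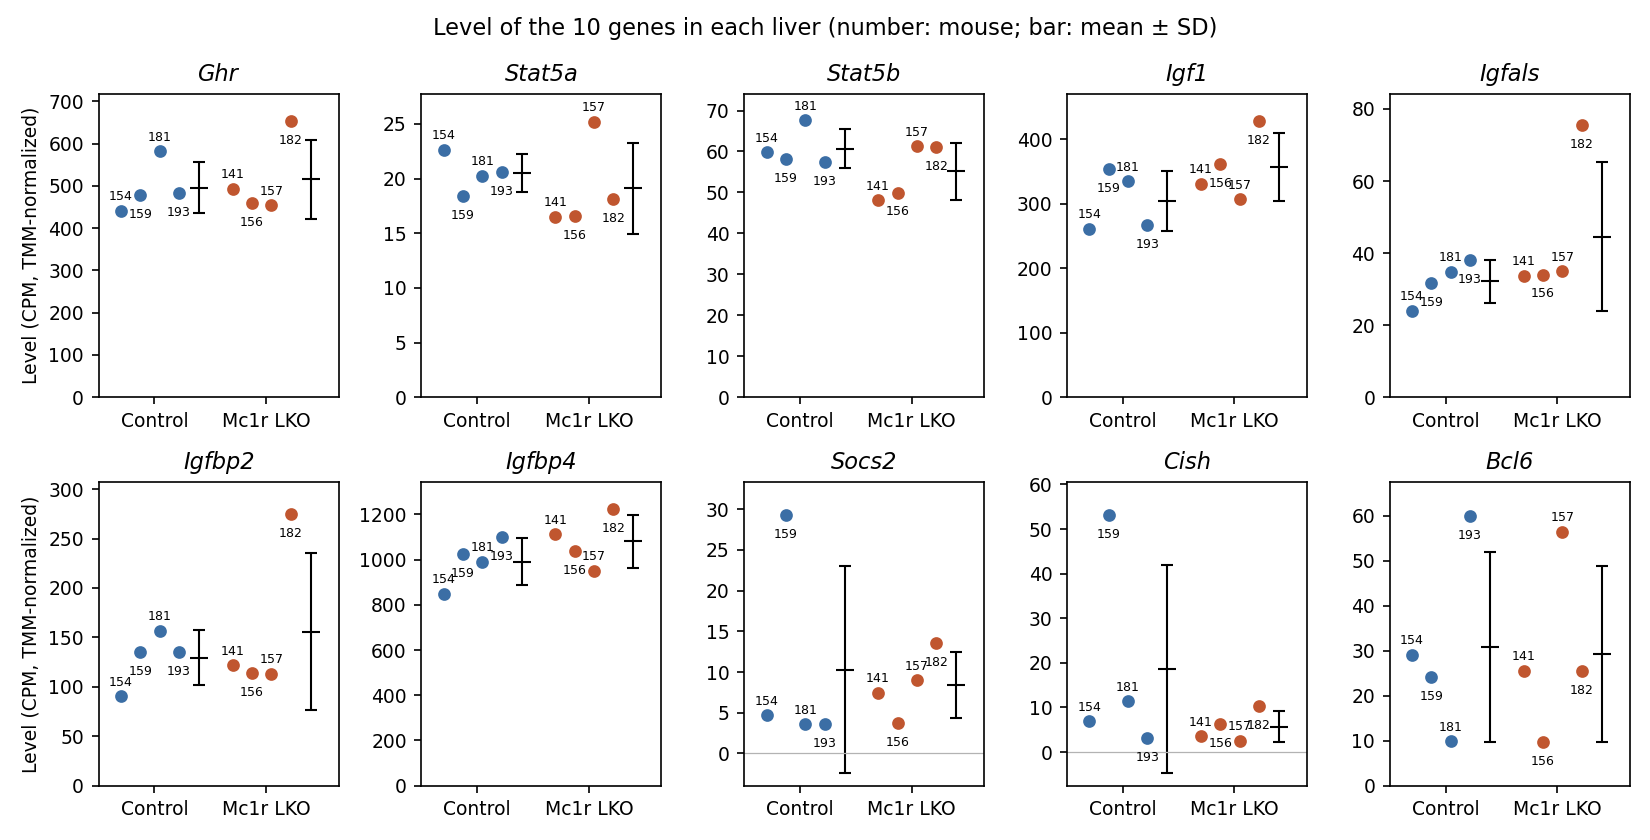
Level of each of the 10 genes in each liver, in TMM-normalized CPM on an axis that includes 0, with the mouse number beside each point and the mean ± SD (n = 4) at the right of each genotype. Control 159 stands above the other livers in Socs2 (29.3) and Cish (53.2), Mc1r LKO 182 in Igfals (75.5) and Igfbp2 (275), and the genotypes overlap in all 10 panels.

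Ghr (ENSMUSG00000055737, chr15:3317760-3583492, minus strand, GRCm38), the receptor that starts the pathway, had 441, 478, 582 and 483 CPM in Control livers 154, 159, 181 and 193 and 493, 460.3, 454 and 654 CPM in Mc1r LKO livers 141, 156, 157 and 182. CPM here is normalized by the trimmed mean of M-values (TMM), and livers are always listed in this order. The livers with the highest Ghr were 182 and 181, 1 of each genotype, and the other 6 lay close together. The log2 fold change was 0.05 ± 0.14 (SE, n = 4 and 4, unadjusted p = 0.699, adjusted p = 0.964, edgeR quasi-likelihood test as for all that follow), with a 95% confidence interval from -0.25 to 0.36, or between 0.839 and 1.29 times the Control level. Counts on this gene include transcripts of the secreted growth hormone binding protein, which the same gene encodes.

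Stat5a (ENSMUSG00000004043, chr11:100859351-100885169, plus strand) and Stat5b (ENSMUSG00000020919, chr11:100780731-100850724, minus strand) encode the transcription factors that carry the signal, and they lie 8626 bases apart with their starts facing each other. Stat5a had 22.6, 18.4, 20.3 and 20.6 CPM in Control livers and 16.5, 16.6, 25.2 and 18.1 CPM in Mc1r LKO livers. In 3 of 4 Mc1r LKO livers it lay below all Control livers, while liver 157 lay above them all. Its log2 fold change was -0.10 ± 0.15 (unadjusted p = 0.512, adjusted p = 0.932). Without liver 157 it was -0.26 (unadjusted p = 0.0452), which did not pass adjustment. Liver 157 was the only Mc1r LKO liver that overlapped the Control livers. Leaving it out therefore fixed in advance that no overlap was left, and this choice also lowers the p. Stat5b, the form that predominates in liver, had 59.8, 58.1, 67.7 and 57.3 CPM in Control livers and 48.1, 50.0, 61.4 and 61.1 CPM in Mc1r LKO livers. Livers 141 and 156 were below every Control liver and the other Mc1r LKO livers were within the Control range. For Stat5b it was -0.14 ± 0.11 (unadjusted p = 0.224, adjusted p = 0.863), and the interval ran from 0.771 to 1.07 times the Control level. Per length of merged exons, in FPKM (fragments scaled by exon length and by depth), Stat5b was between 3.13 and 4.35 times as high as Stat5a in every liver.

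Igf1 (ENSMUSG00000020053, chr10:87858265-87937042, plus strand), the main endocrine product of growth hormone action in liver, had 261, 353, 335 and 267 CPM in Control livers and 331, 361, 307 and 427 CPM in Mc1r LKO livers. Control livers 154 and 193 were the lowest of the 8, and Mc1r LKO livers 182 and 156 the highest. The means were 304 ± 46.8 and 357 ± 52.0 CPM (SD, n = 4 each), with a log2 fold change of 0.23 ± 0.14 (unadjusted p = 0.123, adjusted p = 0.816), so a level between 0.950 and 1.45 times that of Control was within the 95% interval. Over the 8 fits that each left out 1 liver, the log2 fold change lay between 0.14 and 0.32.

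Igfals (ENSMUSG00000046070, chr17:24865997-24882010, plus strand) had 24.0, 31.6, 34.8 and 38.0 CPM in Control livers and 33.7, 34.0, 35.0 and 75.5 CPM in Mc1r LKO livers. Liver 182 held 2.16 times the level of the next Mc1r LKO liver, and the remaining Mc1r LKO livers lay inside the Control range. A log2 fold change of 0.47 ± 0.27 (unadjusted p = 0.106, adjusted p = 0.798) became 0.096 (unadjusted p = 0.517) without liver 182.

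Of the binding proteins, Igfbp2 (ENSMUSG00000039323, chr1:72824503-72852474, plus strand), a carrier that growth hormone lowers, had 90.3, 135, 157 and 135 CPM in Control livers and 122, 114, 113 and 275 CPM in Mc1r LKO livers. Liver 182 was again the highest, at 2.25 times the next Mc1r LKO liver, and the other Mc1r LKO livers lay between Control livers 154 and 193. Igfbp2 had a log2 fold change of 0.27 ± 0.29 (unadjusted p = 0.377, adjusted p = 0.907) with all livers and -0.15 (unadjusted p = 0.376) without liver 182. Igfbp4 (ENSMUSG00000017493, chr11:99041244-99054392, plus strand), whose product restrains IGF action, had 849, 1025, 991 and 1098 CPM in Control livers and 1112, 1038, 950.3 and 1225 CPM in Mc1r LKO livers. The spread was small, 1.44-fold from the lowest to the highest liver, and the groups overlapped. Its log2 fold change was 0.13 ± 0.11 (unadjusted p = 0.297, adjusted p = 0.893).

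The feedback inhibitors were the most uneven. Socs2 (ENSMUSG00000020027, chr10:95385362-95417180, minus strand) had 4.68, 29.3, 3.60 and 3.63 CPM in Control livers and 7.47, 3.77, 9.01 and 13.5 CPM in Mc1r LKO livers. Control liver 159 held 6.26 times the level of the next Control liver, and 3 of 4 Mc1r LKO livers lay above the remaining Control livers. With all livers the log2 fold change was -0.22 ± 0.68 (unadjusted p = 0.750, adjusted p = 0.972), and without liver 159 it turned to 1.11 (unadjusted p = 0.0157), which did not pass adjustment. Liver 159 was the extreme Control liver. Leaving it out therefore fixed in advance a shift upward and a narrower Control spread, and this choice also lowers the p. Counts behind these values ran from 58 to 315 per liver.

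Cish (ENSMUSG00000032578, chr9:107296026-107302784, plus strand) had 6.86, 53.2, 11.4 and 3.10 CPM in Control livers and 3.53, 6.24, 2.50 and 10.3 CPM in Mc1r LKO livers. Again liver 159 was the highest, 4.66 times the next Control liver, and leaving it aside the genotypes spanned similar ranges. Its log2 fold change was -1.69 ± 0.79 (unadjusted p = 0.0585, adjusted p = 0.752), the largest in size among the 10 genes. Without liver 159 it was -0.32 (unadjusted p = 0.556), and without liver 193, 182 or 154 it was -2.04 (unadjusted p = 0.0158), -2.16 (unadjusted p = 0.0307) or -1.96 (unadjusted p = 0.0381), so the call at the unadjusted threshold changed with the livers kept. The highest and lowest livers differed 21.2-fold for Cish and 8.14-fold for Socs2.

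Bcl6 (ENSMUSG00000022508, chr16:23965052-23988852, minus strand) had 29.1, 24.1, 9.85 and 60.0 CPM in Control livers and 25.6, 9.68, 56.4 and 25.5 CPM in Mc1r LKO livers. Each genotype held 1 high liver (193 and 157), 1 low liver (181 and 156) and a pair near the middle, and the high livers were those with the least Cish in their genotype. Bcl6 had a log2 fold change of -0.07 ± 0.55 (unadjusted p = 0.904, adjusted p = 0.990), which was 0.50 without liver 193. Within genotypes, the SD of log2 CPM was 1.36 for Cish, 1.15 for Socs2 and 1.05 for Bcl6, larger than in 99.3%, 98.6% and 98.1% of all genes tested, whereas Stat5b (0.15), Igfbp4 (0.16), Ghr (0.21), Igf1 (0.21) and Stat5a (0.22) were below the median gene.

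**Figure D2:**
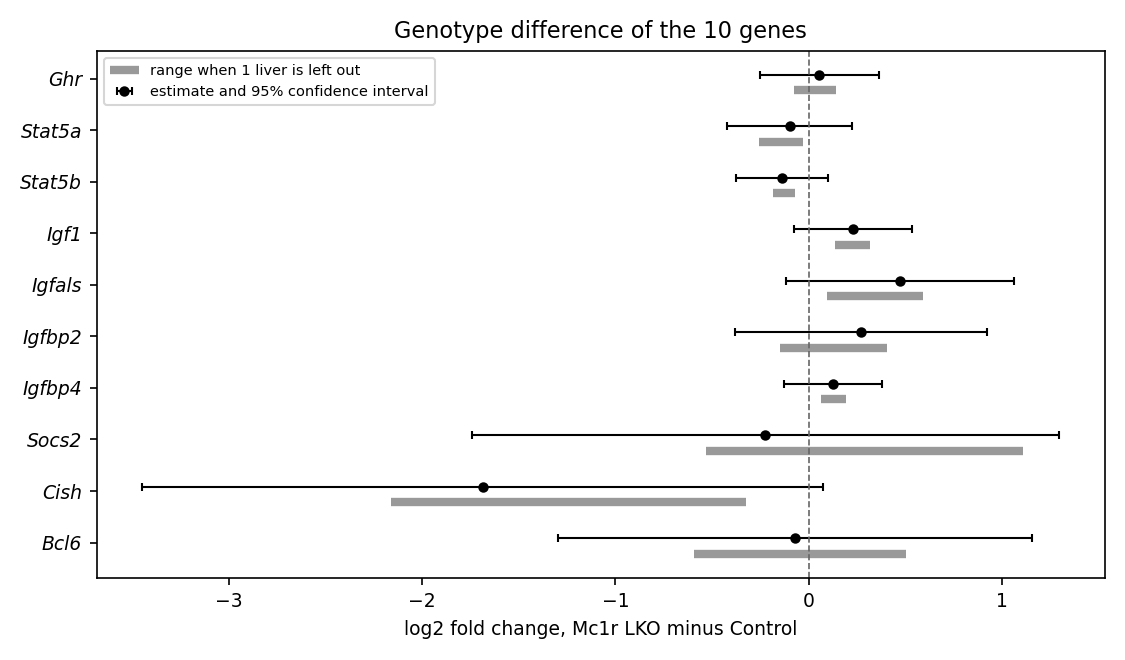
Log2 fold change of each of the 10 genes, Mc1r LKO minus Control. Black shows the 95% confidence interval derived from the F statistic of edgeR, and grey the range over the 8 fits that each left out 1 liver. Every interval includes 0, and the grey range crosses 0 for Ghr, Igfbp2, Socs2 and Bcl6.

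Per length, the order over all 8 livers was Igfbp4 (234.6 FPKM), Igfbp2 (77.1), Ghr (55.9), Igf1 (33.4), Igfals (12.1), Stat5b (10.5), Bcl6 (4.48), Stat5a (2.77), Cish (1.89) and Socs2 (0.983). The first 4 places were the same in all 8 livers. Igfals and Stat5b did not differ beyond their spread, since Igfals was the higher in 4 of 8 livers. Bcl6 lay above Stat5a in 6, Stat5a above Cish in 7 and Cish above Socs2 in 6 of the 8 livers.

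**Figure D3:**
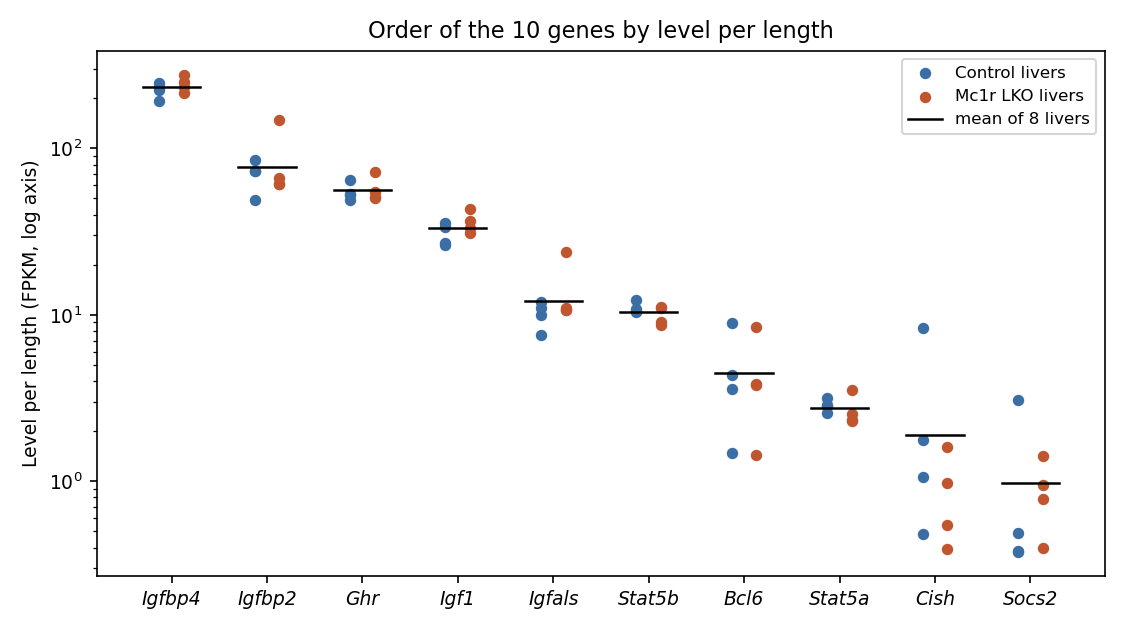
Level per length of the 10 genes in FPKM on a log axis, ordered by the mean over the 8 livers (black line), with Control livers in blue and Mc1r LKO livers in orange. The means run from 234.6 FPKM for Igfbp4 to 0.983 FPKM for Socs2, and the points of Cish, Socs2 and Bcl6 are the most spread.

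Among the 45 pairs of these genes, 6 had a Pearson correlation of log2 CPM over the 8 livers with an unadjusted p under 0.05 (exact permutation test), and 1 passed Benjamini-Hochberg adjustment over the 45. That pair was Ghr and Igfbp2, with r = 0.94 (permutation p = 0.000347, adjusted p = 0.0156) and a Spearman rho of 0.90 (permutation p = 0.00456, adjusted p = 0.205). Without livers 181 and 182, the farthest from the median in Ghr, r was 0.84. With genotype means removed r was 0.94 (exact permutation within genotypes, p = 0.00347, adjusted p = 0.0781). Igf1 and Cish had the same p and adjusted p in that version, with r = 0.87, beside r = 0.44 (permutation p = 0.282) with the means kept. Neither pair passed adjustment in this version. The smallest p of that permutation is 0.00174. A pair alone at that p could not pass adjustment over the 45, but several pairs at it together could. The remaining 5 of the 6 pairs with an unadjusted p under 0.05 were Igfals with Ghr and 4 pairs among Igf1, Igfals, Igfbp2 and Igfbp4. In these 4, r was between -0.093 and 0.19 once livers 154 and 182 were left out. These livers were chosen as the farthest from the median in the first gene of the pair. That choice narrows the range of the gene and can itself lower r, so it does not show what the relations rest on. Igf1 and Igfals, which are both growth hormone targets, had r = 0.71 (permutation p = 0.0528, adjusted p = 0.336), and r = -0.87 without livers 154 and 182. Socs2 and Cish had r = 0.61 (permutation p = 0.106, adjusted p = 0.345) and r = -0.65 without livers 159 and 182. Cish and Bcl6 had r = -0.42 (permutation p = 0.299, adjusted p = 0.693), a rho of -0.67 (permutation p = 0.0831, adjusted p = 0.540), and r = -0.63 without livers 159 and 157. All of these values share the same 8 libraries. The share of other gene pairs past the same thresholds was not counted. The counts of 6 and 1 are therefore not shown to be particular to the axis. On the first principal component of all tested genes, which held 37.6% of the variance, livers 182 and 181 lay at the positive end. They were also the highest in Ghr and Igfbp2, and the part of this in the correlations was not tested. The values of r with livers left out have no p, and the livers were those farthest from the median in the gene named first. Their size and sign are therefore a description only. The genes most like Igf1 across the livers were Slc6a12 (r = 0.98), Nrbp2 (0.97) and Ebp (0.97), and those most like Socs2 were Nrep (0.97), Anks3 (0.96) and Bcl10 (0.96), as a description over 8 livers.

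The other genes of receptor signalling were described by a list of 13, all tested, of which 3 were higher and 10 lower in Mc1r LKO livers with a median log2 fold change of -0.08. Of the 13, 1 passed the unadjusted threshold, near the 6.72% of all genes, so the count says nothing particular of the list. It was Prlr, the prolactin receptor, a close relative of Ghr that also signals through JAK2 and STAT5. Prlr had 49.0, 30.2, 34.5 and 23.2 CPM in Control livers and 45.2, 51.4, 49.5 and 73.7 CPM in Mc1r LKO livers. All Mc1r LKO livers lay above 3 of the 4 Control livers, and Control liver 154 overlapped them. Its difference was 0.68 ± 0.22 on the log2 scale (unadjusted p = 0.0119, adjusted p = 0.734), it lay between 0.51 and 0.91 when each liver was left out in turn, and it was 0.46 (unadjusted p = 0.0665) without both livers 159 and 182. Jak2, the kinase bound to the receptor, lay between 18.1 and 22.6 CPM in Control and between 15.5 and 19.5 CPM in Mc1r LKO livers (log2 fold change -0.15 ± 0.11, adjusted p = 0.858). Sirpa, a receptor carried by macrophages, was highest in liver 159 (55.9 CPM) and lowest in liver 182 (12.1 CPM), with a log2 fold change of -0.39 ± 0.36 (adjusted p = 0.895).

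Of the 6 other SOCS genes, 5 were tested, 0 passed the unadjusted threshold, and 4 had lower and 1 had higher fitted levels (median log2 fold change -0.19). Socs3, which shuts off cytokine receptors, had 5.16, 24.5, 3.86 and 4.24 CPM in Control livers and 5.05, 5.85, 5.33 and 14.8 CPM in Mc1r LKO livers. Livers 159 and 182 were the high ones, as for Socs2. The log2 fold change of -0.23 ± 0.62 (adjusted p = 0.965) was 0.83 (unadjusted p = 0.0646) without liver 159. Socs1 was under the filter, with at most 24 counts in a liver (2.23 CPM, in liver 159) and 0 in Control liver 181. Socs5 (-0.23 ± 0.14, adjusted p = 0.837) and Socs7 (-0.19 ± 0.18, adjusted p = 0.896) were lower on the log2 scale without passing.

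Of the 14 other genes of the IGF system, 8 were tested and 0 passed, with 3 higher, 5 lower and a median log2 fold change of -0.04. Igf2, the fetal growth factor, was at 0 counts in 6 of 8 livers and reached 6 counts in liver 141, and Pappa2, a protease of IGF binding proteins, was at 0 in all 8. Among the receptors, Insr, the insulin receptor, was at 100.4 ± 3.66 CPM in Control and 89.7 ± 9.43 CPM in Mc1r LKO livers (log2 fold change -0.16 ± 0.09, adjusted p = 0.799), Igf2r, which clears IGF2, was at 53.3 ± 3.22 and 52.3 ± 3.83 CPM (adjusted p = 0.972), and Igf1r, the signalling receptor, was at 2.94 ± 0.49 and 2.54 ± 0.91 CPM (adjusted p = 0.921). The genotypes overlapped for all of them. Igfbp1, an insulin-suppressed binding protein, ranged from 29.7 CPM in Control liver 193 to 248 CPM in Mc1r LKO liver 182 (log2 fold change 0.41 ± 0.58, adjusted p = 0.927). Igfbp3, which forms the ternary complex with IGFALS and in liver is made mainly by non-parenchymal cells, had 25.4, 41.1, 34.1 and 43.7 CPM in Control livers and 32.2, 36.7, 30.5 and 16.7 CPM in Mc1r LKO livers (log2 fold change -0.32 ± 0.24, adjusted p = 0.862). Liver 182 was therefore the highest in Igfals and the lowest in Igfbp3. Igfbp5 (0.18 ± 0.26, adjusted p = 0.931), Igfbp7 (-0.05 ± 0.18, adjusted p = 0.977) and the protease gene Htra1 (0.34 ± 0.40, adjusted p = 0.914) also had log2 fold changes that did not pass.

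Sex-biased liver genes that depend on the growth hormone pattern were used as a further readout of the axis. Of 20 male-biased genes 19 were tested, 12 higher and 7 lower in Mc1r LKO livers (of all genes tested 47.9% were higher), with a median log2 fold change of 0.11. Of the 19, 1 passed the unadjusted threshold, no more than the 6.72% of all genes. It was Mup21, a major urinary protein, at 73.5 ± 10.8 CPM in Control and 90.2 ± 11.5 CPM in Mc1r LKO livers (log2 fold change 0.29 ± 0.13, unadjusted p = 0.0473, adjusted p = 0.738). It did not pass without liver 154, 159, 181, 141 or 182 (log2 fold change between 0.20 and 0.36 over the 8 fits). The counts of Mup genes, which are near-identical copies, are uncertain where a read matches more than 1 of them. Whether reads are shared in the same way for Serpina1e, Cyp2a4 and the Cyp2b genes was not checked. Of 26 female-biased genes 15 were tested, 10 higher and 5 lower, with a median of 0.23, and 0 passed. The male median was -0.39 without liver 182, and the female median was -0.14 without liver 141, so neither list kept its direction when these livers were left out.

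The livers differed in these lists within each genotype. The mean deviation of the male-biased genes from the mean of the 8 livers, in log2 CPM, was -0.54, 0.12, 0.66 and -0.17 in Control livers and -0.79, -0.58, 0.07 and 1.23 in Mc1r LKO livers. For the female-biased genes it was 0.39, -0.11, -0.64 and 0.28 in Control livers and 0.59, 0.44, 0.07 and -1.03 in Mc1r LKO livers. On these means, livers 182 and 181 were high in male-biased and low in female-biased genes, and livers 141, 156, 154 and 193 were the reverse. In liver 182, 12 of the 19 male-biased genes were at their highest and 8 of the 15 female-biased genes at their lowest. Not every gene followed its list, since 1 female-biased gene was at its highest in liver 182. In liver 181, 2 male-biased genes were at their lowest. Without the Mup genes the male-biased value of liver 182 was 1.07 over 13 genes. Livers 182 and 181 also lay at the positive end of the first component, with liver 159 farthest at the other end. The part of the marker levels of livers 182 and 181 was not tested. Liver 181 was the lowest Control liver in the summed Kupffer cell (305 CPM), endothelial (277), stellate (291), cholangiocyte (59.7) and lymphocyte (2.87) markers, as liver 182 was among Mc1r LKO livers for the first 4 of these.

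**Figure D4:**
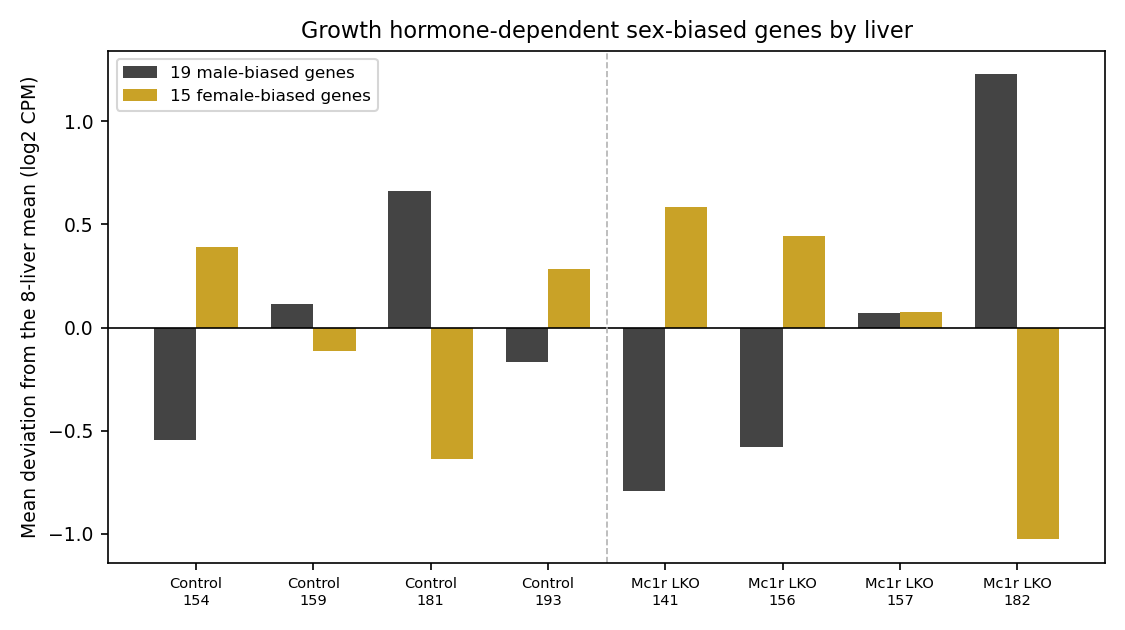
Mean deviation of 19 male-biased (dark bars) and 15 female-biased (yellow bars) growth hormone-dependent genes from their mean over the 8 livers, in log2 CPM, for each Control and Mc1r LKO liver. The bars of a liver point in opposite directions in 7 of 8 livers, most of all in Mc1r LKO 182 (1.23 and -1.03).

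Single genes showed the size of this variation. Hsd3b5, a male-specific steroid-metabolizing enzyme, had 0.160, 0.558, 3.44 and 1.06 CPM in Control livers and 0.138, 0.325, 2.06 and 15.6 CPM in Mc1r LKO livers, and its log2 fold change of 1.78 ± 1.19 (adjusted p = 0.843) turned to -0.54 without liver 182. Serpina1e, a serine protease inhibitor, reached 495 CPM in liver 182 and at most 98.9 CPM elsewhere (log2 fold change 1.22 ± 1.02, adjusted p = 0.880, and -1.21 without liver 182). Both genes were thus high in the same Mc1r LKO liver. Of the female-biased genes, Cyp2a4, a steroid hydroxylase, had 15.7, 3.35, 1.72 and 9.95 CPM in Control livers and 13.8, 15.3, 13.2 and 0.715 CPM in Mc1r LKO livers (log2 fold change 0.46 ± 0.78, adjusted p = 0.939), with livers 182 and 181 the lowest. Cyp2b10, a xenobiotic-inducible P450 (-0.49 ± 0.60, adjusted p = 0.918), and Prom1, which encodes prominin-1 (0.52 ± 0.73, adjusted p = 0.927), were at most 1.96 and 1.94 CPM. Mup7 and Cyp2b9, chosen after their values were seen, ran from 10.99 CPM in liver 141 to 1325 CPM in liver 182 and from 3.78 CPM in liver 182 to 185 CPM in liver 154. Sult1e1, a female-biased gene chosen in the same way, went against its list. It had 18.2 CPM in liver 182 and 11.5 CPM in liver 181, and at most 3.25 CPM elsewhere.

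Of 12 further genes tied to growth hormone or STAT5 in liver, 11 were tested and 0 passed, with 5 higher, 6 lower and a median log2 fold change of -0.04. Egfr, the receptor of epidermal growth factor, had 64.4, 68.1, 108 and 98.0 CPM in Control livers and 88.5, 79.5, 80.7 and 287 CPM in Mc1r LKO livers (log2 fold change 0.66 ± 0.41, adjusted p = 0.830). Liver 182 stood alone, and without it the log2 fold change was -0.03. Cdkn1a, a cell cycle inhibitor, had 68.0, 41.7, 29.5 and 23.9 CPM in Control livers and 30.1, 58.7, 84.4 and 101 CPM in Mc1r LKO livers (0.75 ± 0.39, adjusted p = 0.774). Its genotypes overlapped, with liver 154 high among Control livers and liver 141 low among Mc1r LKO livers. Onecut1, a hepatocyte transcription factor that growth hormone induces, had 15.2 CPM in liver 159 and between 1.44 and 6.03 CPM elsewhere (-0.87 ± 0.71, adjusted p = 0.874), and its log2 fold change was 0.23 without liver 159. Socs2, Cish, Socs3 and Onecut1 were thus all at their highest in Control liver 159, which also had the highest Kupffer cell markers and the lowest total count, and the part of those was not tested.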

How the data were processed

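Liver RNA of 4 Control and 4 Mc1r LKO mice was sequenced from stranded mRNA libraries. Per the labels and file headers, the authors trimmed reads (Trim Galore 0.6.6), aligned them (STAR 2.7.6a) and deposited raw counts of read pairs per gene and mouse (featureCounts of Subread 2.0.1, strand option 2, Ensembl 102 annotation of GRCm38), with no normalization. The methods write GRCh38, whereas the headers give GRCm38. Genes without a symbol held at most 0.0408% of counts.

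From these counts, genes were filtered with filterByExpr (minimum count 10, minimum total 15), normalized by TMM and tested with the quasi-likelihood test of edgeR 4.0.16 (R 4.3.3), which was tested on simulated data, with Benjamini-Hochberg adjustment over 13400 genes. The test of the authors' software is not given in the sources used here. Log2 CPM had a prior count of 2. Levels in CPM of genes under the filter use the same scaling. FPKM used the length of merged exons. No pair of livers of a genotype was alike within sampling noise (smallest chi-square per degree of freedom 11.9, mice 141 and 156). The labels name no batch. The edgeR p-values weigh the genotype difference against the spread between these mice, with that spread moderated over all genes.

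The 10 members, the gene lists and the markers were chosen with earlier results of these data known. The text names the 10 members, 12 nearest genes of the axis, and in each list the genes with unadjusted p under 0.05, filled to 3 by the largest change. A gene that this rule chose is not reported here. Alternatives were DESeq2 1.42.0, limma-voom (limma 3.58.1), the likelihood ratio test, robust dispersion, other normalizations and filters, each liver left out, and, added after seeing the data, livers 159 and 182 left out together. Counting error alone sets the limit that a count of 0 allows (3 counts). Sequences are from RefSeq.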

Additional observations from a re-analysis of the deposited data

Results flagged for a closer look

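In each genotype of 4 livers, the gap between the highest or lowest liver and its neighbour was compared with the whole range by Dixon's rule, which chance passes in about 1 in 20 groups. It was passed in 4 of 20 groups of the 10 genes, and in 6.11% of the groups of all 13400 genes tested. Over all genes, livers 182 and 159 were the ones that passed most often in their genotypes (4.34% and 2.35% of genes), so the groups of different genes are not independent. In Mc1r LKO livers these were Igfals, at 75.5 CPM in mouse 182 against at most 35.0 in the others, and Igfbp2, at 275 CPM in mouse 182 against at most 122. In Control livers they were Socs2, at 29.3 CPM in mouse 159 against at most 4.68, and Cish, at 53.2 CPM in mouse 159 against at most 11.4.

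Other named genes also passed, but many of them were chosen for a large difference, which 1 extreme liver can give, so their number is not a count to compare. Socs3 was high in Control mouse 159 (24.5 CPM, others at most 5.16) and in Mc1r LKO mouse 182 (14.8 CPM, others at most 5.85). Igfbp5 was high in Control mouse 154 (9.78 CPM, others at most 5.91). Mc1r LKO mouse 182 was high in Hsd3b5 (15.6 CPM, others at most 2.06), Serpina1e (495 CPM, others at most 34.0) and Egfr (287 CPM, others at most 88.5), and low in Cyp2a4 (0.715 CPM, others at least 13.2).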

How the results depend on the processing

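No member passed the adjusted threshold under any alternative run. Members past the unadjusted threshold, 0 in the main test, numbered 1 (Cish) with the likelihood ratio test and 1 (Cish) with library size alone. They numbered 2 (Igfals and Cish) with no filter beyond 1 count and 1 (Socs2) without both mice 159 and 182. When each liver was left out they numbered between 0 and 1. Over all genes, between 674 and 1095 passed that threshold when each liver was left out, and between 740 and 1375 over the 10 other alternatives. Members whose genotypes did not overlap numbered between 0 and 1 when each liver was left out (Stat5a, without 157). The removal of 157, the only liver that overlapped, fixed that call in advance. The share of all genes that did not overlap in those fits was not counted. Of 180 member values under alternatives 160 kept direction and side, 12 changed sign and 8 passed the unadjusted threshold with the sign kept. Of the 12, 2 (Socs2) also passed it, so 10 of the 180 passed. For the other named genes 375 of 410 values kept direction and side, 22 changed sign, 9 lost and 4 gained the unadjusted threshold. With limma-voom, the log2 fold changes of Socs2, Socs3 and Prom1 became 0.59, 0.30 and -0.20. Without both mice 159 and 182, those of Ghr, Igfbp2, Socs2, Socs3, Igf2r, Igfbp1, Igfbp7, Sirpa, Hsd3b5, Serpina1e and Egfr were -0.093, -0.13, 0.78, 0.30, 0.0070, -0.12, 0.14, 0.17, -0.75, -0.90 and -0.12. Leaving out each liver gave Ghr -0.076 to 0.14, Igfbp2 -0.15 to 0.41, Socs2 -0.53 to 1.11, Bcl6 -0.60 to 0.50, Socs3 -0.75 to 0.83, Igf2r -0.056 to 0.023, Igfbp7 -0.20 to 0.084, Onecut1 -1.45 to 0.23, Cyp2b10 -1.10 to 0.048, Prom1 -0.30 to 0.95, Hsd3b5 -0.54 to 2.89, Serpina1e -1.21 to 1.60 and Egfr -0.029 to 0.85. Correlated pairs past adjustment went from 1 to 0 with genotype means removed, where a pair alone could not pass but several pairs at the smallest p together could. The order of the means per length was the same by TPM. Within a liver FPKM and TPM always give the same order, so only the weight of each liver in the mean could have changed it. Over all genes, those past the adjusted threshold were 0 in the main test, 17 with DESeq2, 8 with the likelihood ratio test and 1 with no filter, and of genes past the unadjusted threshold 57.4% were higher in the main test and 28.3% with library size alone. Without both mice 159 and 182, 1375 genes passed the unadjusted threshold against 901. Apart from the livers left out, the cause was not tested. The lowest count behind a member was 51 (Cish in liver 141).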
